A study of Danio rerio with 24 samples.

Results

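The genes described here encode 6 enzymes that remove superoxide and peroxides in the zebrafish embryo. They are sod1 (ENSDARG00000043848), sod2 (ENSDARG00000042644), cat (ENSDARG00000104702), gpx1a (ENSDARG00000018146), gpx4a (ENSDARG00000068478) and gpx4b (ENSDARG00000076836). The members were chosen by gene identifier and by enzyme function, not by their values, though earlier results of these data were known at the time. They make up 6 of the 32520 genes in the deposited table, and each of the 6 passed the filter on low counts, which kept 19597 genes.

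Vitamin E (VitE) is a lipid-soluble antioxidant that stops chains of lipid peroxidation in membranes, whereas these enzymes work on the oxidants themselves. Superoxide dismutases convert superoxide to hydrogen peroxide. Catalase and the glutathione peroxidases then remove hydrogen peroxide, and the Gpx4 enzymes are known in mammals for reducing lipid hydroperoxides within membranes, the same damage that VitE limits. The question put to the data was whether the transcripts of these enzymes differed in VitE deficient embryos, and how they changed as the embryos developed.

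Embryos came from adult zebrafish of the Tropical 5D strain. From 55 days post-fertilization the adults were fed a VitE sufficient (E+) or VitE deficient (E–) diet for 80 days to 9 months, and then spawned in groups. The embryos themselves were untreated, so VitE status was that of the parents' diet, and embryos of both groups were picked as morphologically normal and at the right stage. RNA was taken from pools of 10 whole embryos, with 4 pools for each of the 6 groups of diet and time. The times were 12, 18 and 24 hpf, hours counted from fertilization. Whether pools within a group had different parents or spawnings is not stated, so the p-values measure the spread between pools, and the diet and the spawnings behind it cannot be told apart.

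Gene counts per pool ranged from 10537272 to 20973407 (median 15436757.5), and the group with the lowest median was E– at 24 hpf, with 10537272 to 13900515 counts. The most abundant gene, ENSDARG00000080337, held from 25.1% to 39.2% of the gene counts of a pool, so unscaled shares of these counts also depend on its level. The libraries were read from the 3′ end of each mRNA, so a transcript gives about the same number of reads whatever its length. Levels are therefore compared between genes without a length term, as CPM, the reads of a gene relative to the total gene reads of its pool after TMMwsp scaling. Fold changes come from edgeR's quasi-likelihood F-test on the raw counts, and a gene is said to have changed when its Benjamini–Hochberg false discovery rate (FDR) over the 19597 genes was under 0.1. The whole-embryo label was examined with 19 markers of 7 tissues, of which 17 had an identifier. Reads were found for each of the 17. None differed between E– and E+ at an FDR under 0.1, over the 3 time points together or at any of them. Of the genes tested, 1.12% passed for the 3 times together, and 0.806%, 0.398% and 0% at 12, 18 and 24 hpf. A count of 0 of 17 lies near these shares, so it does not show that tissue make-up was equal. In whole embryos, fewer cells of a type and less RNA per cell cannot be told apart.

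Reads of the 6 genes together made up from 0.0289% to 0.0501% of the gene counts of a pool. Most belonged to the gpx4 pair, which took from 83.9% to 90.6% of the reads of the 6 genes. The mean level over the 24 pools was 190.6 CPM for gpx4a and 162.4 CPM for gpx4b. It was 24.1 CPM for gpx1a, 18.2 CPM for sod1, 6.27 CPM for cat and 3.18 CPM for sod2. By this mean, gpx4a stood above 97.2% and sod2 above 41.2% of the genes tested. The order gpx4a, gpx4b, gpx1a, sod1, cat, sod2 was seen in each of the 4 pools of E+ 18 hpf, E– 12 hpf and E– 18 hpf. Neighbours in this order changed places in the other 3 groups. The level of sod1 was above that of gpx1a in 1 of 4 E+ pools at 12 hpf and in 1 of 4 at 24 hpf, so this pair was not separated there beyond the spread of the pools. At 24 hpf gpx4b was above gpx4a in 2 of 4 E+ pools and in 3 of 4 E– pools. In every pool cat was below sod1 and gpx1a and above sod2.

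**Figure D1:**
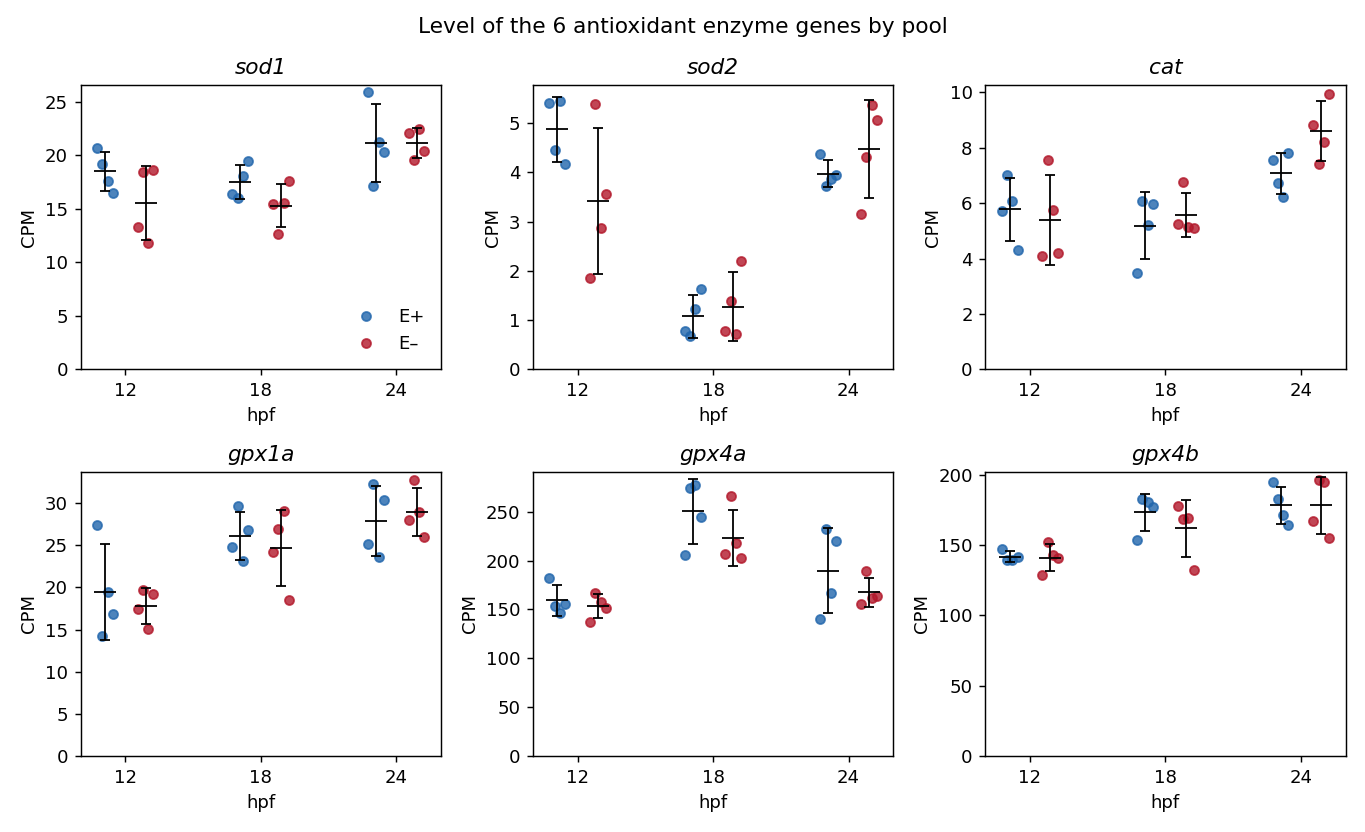
CPM (vertical axes, each from 0) of the 6 genes in every pool by age in hpf (horizontal axes), with E+ pools in blue and E– pools in red, and the mean and SD of the 4 pools in black. E+ and E– pools overlap in every panel and time point, and the lowest levels of sod2 lie at 18 hpf in both diets.

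None of the 6 genes differed between E– and E+ embryos when the 3 time points were tested together. The FDR ranged from 0.657 for sod1 to 0.940 for gpx1a, and 1.12% of the genes tested passed the threshold in this comparison. Tested alone, 12 hpf, 18 hpf and 24 hpf also gave 0 of 6, against 0.806%, 0.398% and 0% of the genes tested. At 24 hpf edgeR called none of the 19597 genes kept, and 6.67% of them had an unadjusted p under 0.05. At this time DESeq2 called 23, and edgeR called 26 in a fit of all genes with reads. None of the 6 reached an unadjusted p under 0.05 in any of the edgeR tests over the 19597 genes. DESeq2 and the fit of all genes with reads called none of the 6. E– and E+ pools overlapped for each of the 6 genes at each time point. Among the genes tested, the shares without overlap were 4.11%, 6.32% and 4.37%, in order of age. With 6 genes, a count of 0 lies near these shares and does not set the 6 apart. The diet effect was not found to differ between time points for any member (lowest FDR 0.862, for sod2), and it did for 0.0153% of the genes tested. The median log2FC of E– against E+ over the 6 genes was -0.11 at 12 hpf, -0.091 at 18 hpf and 0.029 at 24 hpf, beside medians of -0.0024, 0.00046 and 0.00068 over the genes tested. The intervals below give the differences that the data leave possible.

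**Figure D2:**
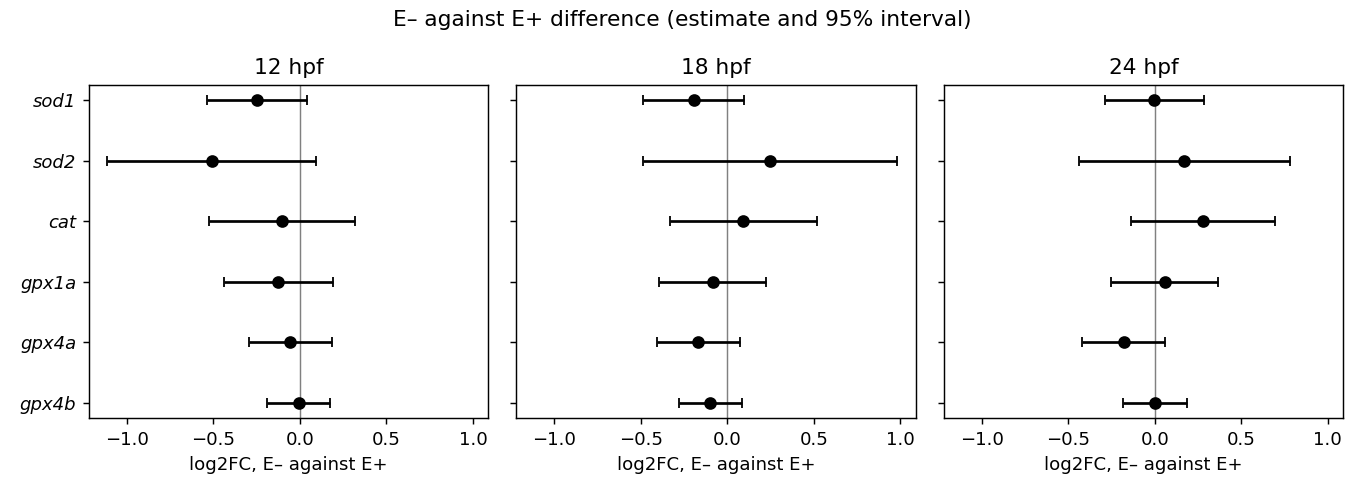
Log2FC of E– against E+ embryos (horizontal axes) for the 6 genes at 12, 18 and 24 hpf, as points with 95% intervals from the edgeR fit. Each of the 18 intervals includes 0, the narrowest are those of gpx4b and the widest those of sod2.

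The cytosolic copper-zinc superoxide dismutase is encoded by sod1. At 12 hpf its level was 20.7, 19.2, 17.6 and 16.5 CPM in the E+ pools and 13.3, 18.4, 11.8 and 18.6 CPM in the E– pools. A pair of E– pools thus lay below every E+ pool and the other pair lay inside the E+ range, for means of 18.5 ± 1.84 and 15.5 ± 3.48 CPM (SD, n = 4). The log2FC was -0.25 (standard error 0.14, 95% interval -0.54 to 0.038, FDR = 0.554). At 18 hpf the E+ pools held 16.4, 16.0, 18.1 and 19.5 CPM and the E– pools 15.4, 12.7, 15.5 and 17.6 CPM. Of the E– pools, 3 of 4 were below the lowest E+ pool at this time (log2FC -0.19, interval -0.49 to 0.098, FDR = 0.730). By 24 hpf the E+ mean was 21.1 ± 3.60 CPM and the E– mean 21.1 ± 1.38 CPM (log2FC -0.0016, interval -0.29 to 0.29), and the E– pools, from 19.6 to 22.5 CPM, lay inside the E+ range of 17.1 to 25.9 CPM.

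Over development, the log2FC of sod1 between 12 and 18 hpf was -0.080 in E+ (FDR = 0.701) and -0.023 in E– embryos (FDR = 0.925). It then rose between 18 and 24 hpf in E– embryos, where all 4 pools at 24 hpf were above all 4 at 18 hpf (log2FC 0.46, standard error 0.14, FDR = 0.0223). This call was lost under 2 of 35 alternatives, with a highest FDR of 0.325. In E+ embryos the log2FC of this step was 0.27 and did not pass the test (FDR = 0.195). Without E+ 24 hpf replicate 2, the lowest of its group, it was 0.36 (FDR = 0.0949), and without E+ 24 hpf replicate 1, the highest, it was 0.16 (FDR = 0.527). The rise from 12 to 24 hpf likewise passed the test in E– (0.44, FDR = 0.0107) and not in E+ embryos (0.19, FDR = 0.279). Its E– call was lost under 1 of 35 alternatives (FDR = 0.218). The responses in the 2 diets are not shown to be different, since the test of the difference itself had an FDR of 0.933.

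The manganese superoxide dismutase of the mitochondrial matrix is encoded by sod2. This gene had the lowest level of the 6 and the largest changes in the steps into and out of 18 hpf. The E+ pools of 12 hpf held 5.40, 4.46, 5.46 and 4.17 CPM, those of 18 hpf 0.777, 0.689, 1.23 and 1.62 CPM, and those of 24 hpf 4.37, 3.72, 3.86 and 3.95 CPM. Every E+ pool at 18 hpf was thus below every E+ pool at either other time. The E– pools of 12 hpf held 1.85, 5.38, 2.88 and 3.56 CPM, those of 18 hpf 0.777, 1.40, 0.726 and 2.21 CPM, and those of 24 hpf 3.15, 4.31, 5.37 and 5.07 CPM. Here 1 pool at 18 hpf, replicate 4, was above the lowest pool at 12 hpf, replicate 1, and all 4 were below the pools at 24 hpf.

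Between 12 and 18 hpf sod2 fell by 2.17 on the log2 scale in E+ embryos (standard error 0.33, FDR = 1.75e-06) and by 1.41 in E– embryos (standard error 0.33, FDR = 0.000694). After 18 hpf it rose by 1.88 in E+ (standard error 0.34, FDR = 6.25e-05) and by 1.80 in E– embryos (standard error 0.33, FDR = 0.00011). The level at 24 hpf did not differ from that at 12 hpf by this test in E+ (log2FC -0.30, interval -0.89 to 0.30) or in E– embryos (0.38, interval -0.23 to 1.00). The fall and the rise passed the test in both diets in each of the 24 fits that left out 1 pool, and in lane 7 and lane 8 alone. A fall followed by a rise, each called in both diets, was found for 74 genes, 0.378% of those tested. With the smallest of its 4 changes at 1.41 log2 units, sod2 ranked 7 of these 74. The low point rests on few reads, from 10 to 25 per E+ pool and from 11 to 36 per E– pool at 18 hpf, against 56 to 112 per E+ pool at the other times. E– pools had from 29 to 84 reads at 12 hpf and from 36 to 64 at 24 hpf, so the read numbers of E– pools at 18 hpf overlapped with the former and met the latter.

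Between the diets, sod2 had the widest intervals of the 6. Its mean at 12 hpf was 4.87 ± 0.656 CPM in the E+ group and 3.42 ± 1.49 CPM in the E– group (SD, n = 4), and 3 of 4 E– pools were below the lowest E+ pool. The log2FC was -0.51 (standard error 0.30, interval -1.11 to 0.093, FDR = 0.570), which reached -0.82 without E– 12 hpf replicate 2 and -0.31 without E– 12 hpf replicate 1, and passed the test in neither case. It was 0.25 at 18 hpf (interval -0.49 to 0.98) and 0.17 at 24 hpf (interval -0.44 to 0.78). The estimate at 18 hpf was -0.16 without E– 18 hpf replicate 4, the highest pool of its group. Without E– 12 hpf replicate 2, the rise of sod2 from 12 to 24 hpf in E– embryos passed the test (log2FC 0.69, FDR = 0.0757).

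**Figure D3:**
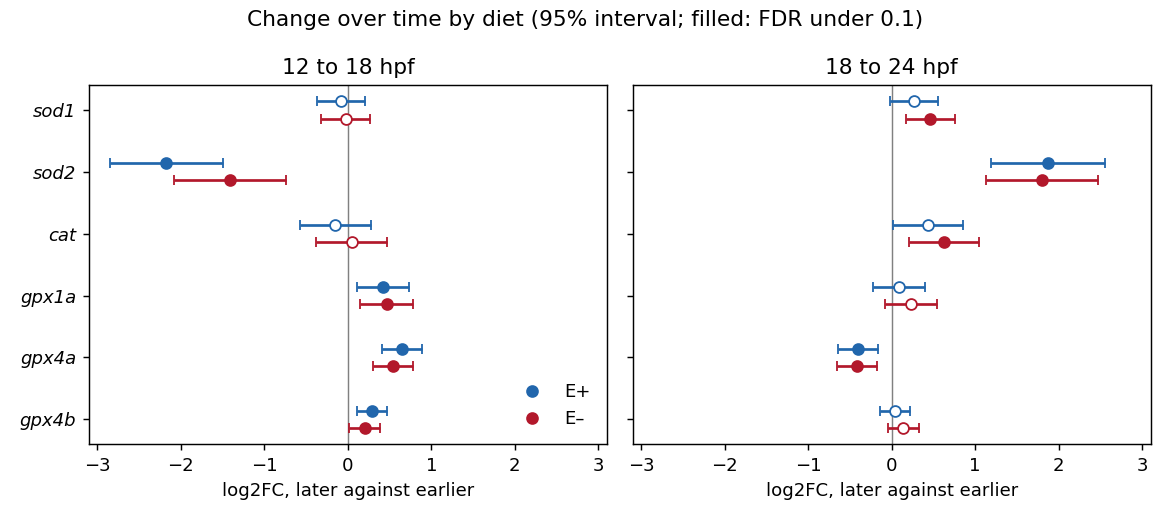
Log2FC from 12 to 18 hpf (left) and from 18 to 24 hpf (right) for the 6 genes, with 95% intervals, E+ in blue, E– in red and filled points for an FDR under 0.1. In both diets sod2 fell and then rose, and gpx4a rose and then fell.

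Catalase, which breaks down hydrogen peroxide mainly in peroxisomes, is encoded by cat. At 12 hpf its level was 5.72, 7.02, 6.09 and 4.29 CPM in E+ pools and 4.08, 7.56, 5.75 and 4.21 CPM in E– pools. At 18 hpf the values were 3.50, 6.09, 5.21 and 5.98 CPM in E+ and 5.26, 6.78, 5.15 and 5.10 CPM in E– pools. The groups overlapped widely at both times, with a log2FC of -0.10 (interval -0.52 to 0.32) and 0.092 (interval -0.33 to 0.52). At 24 hpf the E+ pools held 7.57, 6.71, 6.22 and 7.83 CPM and the E– pools 8.83, 7.41, 8.22 and 9.95 CPM. Of the E– pools, 3 of 4 were then above the highest E+ pool. The log2FC was 0.28 (standard error 0.20, interval -0.13 to 0.70, FDR = 0.872), so a difference of this size was within the error.

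The highest mean of cat was reached at 24 hpf in both diets. Its log2FC from 12 to 18 hpf was -0.15 in E+ (FDR = 0.617) and 0.045 in E– embryos (FDR = 0.896). Thereafter it rose by 0.62 on the log2 scale in E– embryos (standard error 0.21, FDR = 0.0337), and the pools of these times did not overlap. This call was lost under 2 of 35 alternatives, with a highest FDR of 0.541. In 1 of them E– 24 hpf replicate 4 was left out (0.55, FDR = 0.101). In E+ embryos the pools did not overlap either, and the log2FC of 0.44 had an unadjusted p of 0.0429 and an FDR of 0.148. Over the whole interval the log2FC was 0.67 in E– (FDR = 0.00723) and 0.29 in E+ embryos (FDR = 0.262), and the test of a difference between the diets had an FDR of 0.931. The E– call over this interval was lost under 1 of 35 alternatives (FDR = 0.328). The gene had from 45 to 126 reads per pool.

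Glutathione peroxidases use glutathione to reduce peroxides, and the Gpx1 enzyme, here gpx1a, is the cytosolic form that acts on soluble peroxides. At 12 hpf gpx1a was at 27.4, 14.2, 19.4 and 16.9 CPM in E+ pools and at 17.4, 19.7, 15.0 and 19.2 CPM in E– pools. The E– pools lay inside the E+ range, which was widened by replicate 1 at 27.4 CPM. The log2FC of E– against E+ was -0.13 at 12 hpf (interval -0.44 to 0.19), -0.084 at 18 hpf (interval -0.39 to 0.23) and 0.058 at 24 hpf (interval -0.25 to 0.37).

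With age gpx1a rose in both diets, and the estimated rise was larger before 18 hpf than after it. The steps were not tested against each other. In order of age, the E+ means were 19.5 ± 5.69, 26.1 ± 2.80 and 27.8 ± 4.13 CPM (SD, n = 4), and the E– means were 17.9 ± 2.14, 24.7 ± 4.53 and 28.9 ± 2.84 CPM. For the earlier step the log2FC was 0.42 in E+ (standard error 0.15, FDR = 0.0276) and 0.46 in E– embryos (standard error 0.16, FDR = 0.0169). The E+ call was lost under 3 of 35 alternatives, with a highest FDR of 0.260. In 1 of them E+ 12 hpf replicate 2, the lowest pool of its group, was left out (0.30, FDR = 0.140). The E– call was lost under 2 of 35, with a highest FDR of 0.207. For the later step gpx1a did not pass the test (0.090 in E+ and 0.23 in E–). From 12 to 24 hpf it rose by 0.51 in E+ (FDR = 0.00543) and by 0.70 in E– embryos (FDR = 0.000298) on the log2 scale, and in E– embryos all pools at 24 hpf were above all pools at 12 hpf. The E+ call over this interval was lost under 1 of 35 alternatives (FDR = 0.144).

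The Gpx4 enzymes act on hydroperoxides of membrane phospholipids, and zebrafish carry a pair of genes for them, gpx4a and gpx4b. Both were expressed at over 100 CPM in every pool, with from 1655 to 5181 reads per pool. Counting error was small beside the spread between pools, except for gpx4b in E+ embryos at 12 hpf. There the SD was 2.65% of the mean, and counting alone gives 1.97%. At 12 hpf gpx4a was at 182.5, 154.0, 146.0 and 155.5 CPM in E+ pools and at 137.3, 167.1, 158.0 and 151.2 CPM in E– pools. At 18 hpf the E+ pools held 206.0, 274.4, 276.9 and 244.4 CPM and the E– pools 206.8, 265.5, 217.8 and 202.6 CPM. These ranges overlapped at both times, and all 8 pools at 18 hpf were above all 8 at 12 hpf. At 24 hpf the values were 140.3, 231.9, 166.8 and 219.5 CPM in E+ and 156.0, 189.1, 161.3 and 163.5 CPM in E– pools.

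The E– mean of gpx4a was below the E+ mean at each time point, with none of these differences past the test. The log2FC was -0.056 at 12 hpf (interval -0.30 to 0.18), -0.17 at 18 hpf (interval -0.41 to 0.072, FDR = 0.711) and -0.18 at 24 hpf (interval -0.42 to 0.061, FDR = 0.845). At 24 hpf the 4 E– pools lay inside the E+ range, which ran from 140.3 to 231.9 CPM. The value at 24 hpf was -0.067 without E+ 24 hpf replicate 2 and -0.30 without E+ 24 hpf replicate 1. The direction at 12 hpf was not stable, since the log2FC was 0.015 without E+ 12 hpf replicate 1.

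Over time gpx4a peaked at 18 hpf. It first rose by 0.65 in E+ (standard error 0.12, FDR = 2.71e-05) and by 0.54 in E– embryos (standard error 0.12, FDR = 0.000334) on the log2 scale. It then fell by 0.40 in E+ (FDR = 0.0128) and by 0.41 in E– embryos (FDR = 0.0124). The pools of these times did not overlap in E– embryos. In E+ embryos they did, since the highest pool at 24 hpf (231.9 CPM) was above the lowest at 18 hpf (206.0 CPM). On lane 7 alone the fall lost its call in both diets (FDR = 0.335 in E+ and 0.188 in E–). A rise followed by a fall, each called in both diets, was seen for 126 genes, 0.643% of those tested. The net change from 12 to 24 hpf was 0.25 in E+ embryos, with an FDR of 0.0797. This call was lost without E+ 24 hpf replicate 2, where the log2FC was 0.14 (FDR = 0.376), and in 4 other fits that each left out 1 pool of E+ 12 hpf or E+ 24 hpf. It was also lost in the fit of all genes with reads (log2FC 0.21, FDR = 0.121), on lane 7 alone (0.14, FDR = 0.648) and at an FDR threshold of 0.05. In E– embryos the net change was 0.13 and did not pass the test (FDR = 0.393).

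In the fit over the 6 groups, gpx4b had a biological coefficient of variation of 9.48%, the lowest of the 6 genes. Its pools were not the most alike in every group. In E– embryos at 24 hpf the SD was 11.4% of the mean for gpx4b and 6.54% for sod1. For gpx4b the pools of 12 hpf held 147.1, 139.0, 139.4 and 141.2 CPM in E+ and 128.5, 152.3, 142.7 and 140.5 CPM in E– embryos. At 24 hpf they held 194.8, 182.4, 171.0 and 164.5 CPM in E+ and 166.7, 196.3, 194.4 and 155.3 CPM in E– embryos. E– and E+ pools overlapped at both times, with E+ and E– means of 141.7 ± 3.76 and 141.0 ± 9.80 CPM in the younger and 178.2 ± 13.3 and 178.2 ± 20.4 CPM in the older embryos (SD, n = 4). The 95% interval of E– over E+ levels ran from 0.877-fold to 1.13-fold at 12 hpf, from 0.823-fold to 1.06-fold at 18 hpf and from 0.881-fold to 1.14-fold at 24 hpf, the narrowest of the 6 genes.

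Up to 18 hpf gpx4b rose by 0.29 in E+ embryos (standard error 0.09, FDR = 0.00974) and by 0.20 in E– embryos (standard error 0.09, FDR = 0.0832). The E– call was lost under 11 of 35 alternatives, with a highest FDR of 0.675. These included DESeq2 (FDR = 0.111) and the fit of all genes with reads (FDR = 0.198). They also included leaving out any 1 of 6 of the 8 pools compared, with a highest FDR of 0.253 in those fits. The E+ call was lost under 1 of 35 (FDR = 0.250). After 18 hpf the log2FC was 0.040 in E+ (FDR = 0.822) and 0.14 in E– embryos (FDR = 0.335). The rise from 12 to 24 hpf was 0.33 in E+ (FDR = 0.00245) and 0.34 in E– embryos (FDR = 0.00203), and all pools at 24 hpf were above all pools at 12 hpf in each diet. The E+ call of this rise was lost under 1 of 35 alternatives (FDR = 0.119).

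Ratios of reads within a pool do not depend on how libraries are scaled. The ratio of gpx4a to gpx4b was 1.12 ± 0.0820 at 12 hpf, 1.44 ± 0.0940 at 18 hpf and 1.08 ± 0.284 at 24 hpf in E+ embryos (SD, n = 4). In E– embryos it was 1.09 ± 0.0181, 1.39 ± 0.197 and 0.945 ± 0.0918. The transcripts of the pair were thus closest to equal at 12 and 24 hpf, and gpx4a exceeded gpx4b in every pool at 12 and 18 hpf. At 24 hpf the E+ pools ranged from 0.720 to 1.33, a wider spread than in any other group. The ratio of sod1 to sod2 was 3.83 ± 0.445, 17.8 ± 5.31 and 5.30 ± 0.556 in E+ and 4.98 ± 1.66, 14.6 ± 7.02 and 4.94 ± 1.39 in E– embryos, in order of age. In every pool sod1 had more reads than sod2.

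**Figure D4:**
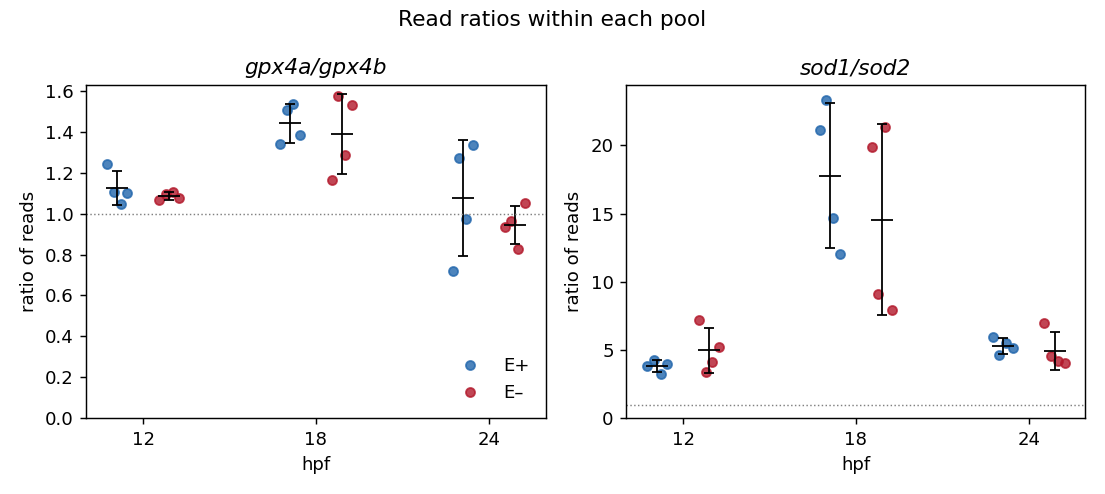
Ratio of reads of gpx4a to gpx4b (left) and of sod1 to sod2 (right) in each pool by time point, E+ in blue and E– in red, with mean and SD of 4 pools in black and a dotted line at a ratio of 1. Both ratios are highest at 18 hpf in both diets, and E+ and E– pools overlap at each time.

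Counted together, 4 of the 6 genes changed from 12 to 18 hpf in E+ embryos, against 43.9% of the genes tested. The number was 4 of 6 in E– embryos, against 42.2%. These were gpx1a, gpx4a and gpx4b, which rose, and sod2, which fell, in each diet. From 18 to 24 hpf, 2 of 6 changed in E+ embryos (24.8% of the genes tested) and 4 of 6 in E– embryos (21.8%). From 12 to 24 hpf, 3 of 6 changed in E+ (53.3%) and 4 of 6 in E– embryos (55.5%), and each of these was a rise. The percentages of genes tested count rises and falls together. Pools of the later and the earlier time did not overlap for 3 and 2 of the 6 genes in the earlier and later step in E+ embryos (34.4% and 23.6% of genes), and for 1 and 4 in E– embryos (34% and 21.1%). For the whole interval these numbers were 1 in E+ (43.1%) and 3 in E– embryos (43.5%). Comparisons of successive steps share the pools at 18 hpf. Tissue markers moved over the same hours, by different amounts. The summed level of 4 erythroid markers lay between 15.9 and 30.0 CPM in E+ pools of 12 hpf and between 1067 and 2133 CPM in those of 24 hpf. In E– pools these limits were 13.7 and 26.6 CPM, then 1813 and 1952 CPM. For 3 skeletal muscle markers the limits were 38.9 and 99.2 CPM, then 3082 and 3907 CPM, in E+ pools, and 37.1 and 74.5 CPM, then 2967 and 3381 CPM, in E– pools. Most of the rise of the muscle sum was that of actc1b, from a mean of 48.3 to 3379 CPM in E+ embryos. From 18 to 24 hpf myod1 and myog fell in both diets. Their log2FC was -0.59 and -0.90 in E+ and -0.61 and -0.84 in E– embryos. From 12 to 24 hpf summed levels rose less for neural markers (E+ median 349 to 691 CPM) and yolk syncytial layer markers (825 to 1130 CPM). The part of tissue markers in the changes of the 6 genes was not tested.

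Other enzymes that handle peroxides and thiols were taken from a list of 27 symbols, of which 21 had an identifier. These gave 24 identifiers, and 21 of them had enough reads to be tested. None of the 21 differed between E– and E+ over the 3 time points together (lowest FDR 0.195, for glrx) or at any single time point, where 1.12% of all genes tested passed for the 3 times together, and in none did the diet effect differ between times (lowest FDR 0.673). From 12 to 24 hpf, 11 of the 21 rose and 1 fell in E+ embryos, and in E– embryos 11 rose and 1 fell, with 9 that did not pass the test in each diet. The 12 of 21 called are to be read against 53.3% of all genes tested in E+ and 55.5% in E– embryos. These shares count rises and falls together, so the direction of the calls has no share over all genes beside it. The median log2FC of the 21 for this interval was 0.40 in E+ and 0.47 in E– embryos, beside 0.018 and 0.063 over the genes tested. The genes of this list named here were picked after their values were seen.

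Peroxiredoxins reduce hydrogen peroxide with electrons from thioredoxin. The mitochondrial prdx3 rose from 14.2 to 40.0 CPM in E+ (log2FC 1.49) and from 14.1 to 34.6 CPM in E– embryos (1.29) between 12 and 24 hpf. Unlike sod2, whose product works in the same compartment, prdx3 at 18 hpf was at 36.6 CPM in the E+ and 34.3 CPM in the E– group. The peroxiredoxin prdx6 rose from 3.84 to 10.8 CPM in E+ (log2FC 1.49) and from 4.09 to 11.3 CPM in E– embryos (1.46). Thioredoxin itself, txn, was the most abundant of the list, with an E+ mean of 315.9 CPM at 12 hpf, and rose by 0.25 on the log2 scale to 24 hpf in E+ embryos (FDR = 0.0192). In E– embryos its log2FC was 0.18 (FDR = 0.105). The mitochondrial glutaredoxin glrx5 was the 1 gene that fell, by 0.40 in E+ and by 0.39 in E– embryos. The paralog of gpx1a, gpx1b, had E+ means of 1.41 CPM at 12 hpf and 2.20 CPM at 24 hpf and did not pass the test over this interval (log2FC 0.65 in E+ and 0.47 in E–).

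**Figure D5:**
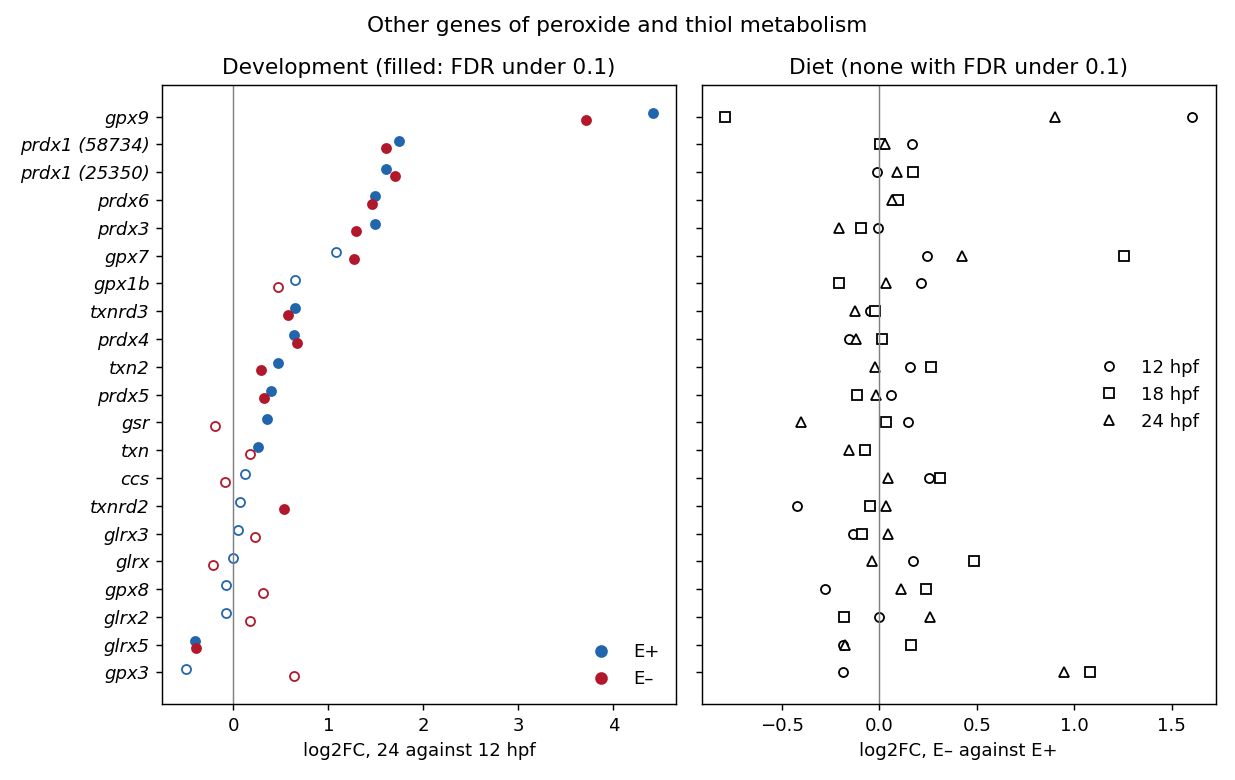
Log2FC of 24 against 12 hpf (left, E+ in blue, E– in red, filled for an FDR under 0.1) and of E– against E+ (right, by time point) for 21 other genes of peroxide and thiol metabolism, ordered by the E+ value, with the last digits of the identifier where a symbol has more than 1. Of these genes 11 rose and 1 fell with time in each diet, and none passed the test for diet. Of all genes tested, 53.3% (E+) and 55.5% (E–) changed with time in either direction.

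The genes whose profile over the 24 pools was most like each member were found by Pearson's r of log2(CPM + 1) among 19591 other genes. For sod1 they were MT-ND1 (r = 0.868) and MT-ND3 (r = 0.856), which encode complex I subunits in the mitochondrial genome. For sod2 they were ATP6V0C, a subunit of the vacuolar proton pump (r = 0.83), and the nuclear import factor IPO9 (r = 0.803). For cat they were ENSDARG00000098856 (r = 0.822), which has no symbol in the name table, and si:ch73-366l1.5 (r = 0.819). For gpx1a they were RND3 (r = 0.881) and AP2M1 (r = 0.879), and for gpx4a FABP1, a fatty acid binding protein (r = 0.902), and si:rp71-17i16.6 (r = 0.883). For gpx4b they were the fumarate hydratase gene FH (r = 0.910) and ZNF367 (r = 0.891). These values describe 24 pools that share 3 time points and the same libraries, and no r between members was higher than 0.781, for gpx1a and gpx4b. The lowest r between members was -0.645, for sod2 and gpx4a, which had their lowest and highest levels at 18 hpf.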

How the data were processed

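Poly(A) RNA of whole embryos was sequenced from the 3′ end in 24 libraries of 6 groups, with 12 libraries on each of lanes 7 and 8. The authors trimmed the reads with bbduk, aligned them to GRCz11 with STAR (2.7.3a) and deposited raw counts per Ensembl gene, not normalized. Which strand was counted is not given in the sources used here. Rows that name no gene (unmapped, multimapped, without a gene, on several genes) held from 39.1% to 47.5% of the reads of a pool and were left out. Reads that map to several places were among them, so any loss between gpx4a and gpx4b is unknown.

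The raw counts were fitted with edgeR 4.0.16 under R 4.3.3. Genes were kept by filterByExpr (19597 of 29109 with reads), scaled by TMMwsp and fitted over the 6 groups by glmQLFit. A fit of all genes with reads is given as an alternative. It calls more genes for diet and over the whole interval of time. For the earlier and the later step it calls fewer, in each diet. The scaling, the quasi-likelihood test and the FDR threshold of 0.1 follow the study's methods. The standard error of a log2FC is its size over the square root of F, and its 95% interval uses the fit's degrees of freedom. The script was tested on simulated data.

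The members and the lists of genes were chosen with earlier results of these data known. Groups, lanes and replicate numbers came from the sample labels. Symbols came from a table that names 29201 identifiers, where sod1, sod2 and cat are in capitals and gpx4b is GPX4. Genes named are the 6 members, at most 6 of the listed pathway genes, the 2 genes nearest to each member and the 3 skeletal muscle markers. Replicate libraries differed by more than sampling noise (chi-square over its degrees of freedom between 5.14 and 23.3 in 36 pairs). At the lowest count, 10 reads, counting error is large, and reads carry no molecular identifiers here. Alternatives were DESeq2 1.42.0, other scalings and gene sets, a term for lane, a block for replicate number, single lanes or time points, an FDR of 0.05, and leaving out each pool.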

Additional observations from a re-analysis of the deposited data

Results flagged for a closer look

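Of 36 groups of 4 pools, 1 held a pool far from the others by Dixon's criterion, and chance flags about 1 in 20 groups. For cat in E– embryos at 18 hpf, replicate 2 was at 6.78 CPM and the other 3 pools were from 5.10 to 5.26 CPM (gap over range 0.903). Without this pool the log2FC of cat between the diets at 18 hpf was -0.015 in place of 0.092, and its rise from 18 to 24 hpf in E– embryos was 0.73 in place of 0.62.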

How the results depend on the processing

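The number of the 6 genes that differed by diet was 0 at each time point, over the 3 times together and for the diet by time test under every alternative run. Few of all genes were called in these fits, at most 637 of 19597 over the 3 times together (DESeq2). A count of 0 of 6 lies near such shares. Among 744 values of single members under other settings, 703 kept their direction and side of the threshold, 22 lost the call and 19 changed sign. None of the 19 was called with all pools.

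On lane 7 alone, with 2 pools per group, the genes called were 2 and 1 of 6 for the earlier and later step in E+ and 2 and 1 in E– embryos, and 1 in E+ and 2 in E– embryos from 12 to 24 hpf. Of all 19597 genes, lane 7 alone called 6000 and 2132 for these steps in E+ embryos, against 8610 and 4863 with all pools. In E– embryos it called 4898 and 1946, against 8262 and 4278. From 12 to 24 hpf it called 7800 in E+ and 7880 in E– embryos, against 10449 and 10874. On lane 8 alone 2 of 6 were called from 12 to 18 hpf in E– embryos, where 6322 of all 19597 genes were called. Fewer pools were fitted in both.

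Signs changed as follows. For gpx4b at 24 hpf the log2FC of E– against E+ was -0.017 with TMM, -0.012 with library totals alone, -0.0031 with the replicate block, -0.065 on lane 7 and -0.012 with DESeq2. For sod1 at 24 hpf it was 0.0063 in the fit of all genes with reads, 0.0027 with the replicate block and 0.044 on lane 8. On lane 7 it was 0.049 for gpx4b at 18 hpf and -0.12 for sod2 at 24 hpf. On lane 8 it was 0.037 for gpx4a and 0.014 for gpx4b at 12 hpf, and -0.13 for cat at 18 hpf. From 12 to 18 hpf in E– embryos sod1 was at 0.011 with TMM, 0.075 with library totals alone and 0.12 on lane 8. In E+ embryos on lane 8, sod1 was at 0.14 and cat at 0.10 from 12 to 18 hpf, and gpx4b at -0.090 from 18 to 24 hpf. The cause was not tested.

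Leaving out each pool in turn gave diet log2FC values at 12 hpf from -0.31 to 0.0094 for cat, -0.25 to 0.084 for gpx1a, -0.10 to 0.015 for gpx4a and -0.046 to 0.035 for gpx4b. At 18 hpf they were -0.051 to 0.18 for cat, -0.17 to 0.031 for gpx1a and -0.16 to 0.52 for sod2. At 24 hpf they were -0.045 to 0.14 for gpx1a, -0.049 to 0.061 for gpx4b and -0.090 to 0.11 for sod1. These are the diet values whose sign changed, and the others kept theirs. At 12 hpf the others were -0.35 to -0.14 for sod1 and -0.82 to -0.31 for sod2. At 18 hpf they were -0.27 to -0.11 for sod1, -0.26 to -0.12 for gpx4a and -0.15 to -0.013 for gpx4b. At 24 hpf they were 0.19 to 0.35 for cat, -0.30 to -0.067 for gpx4a and 0.071 to 0.31 for sod2. Some changes over time also changed sign. The log2FC of 18 against 12 hpf within E– embryos ran from -0.067 to 0.25 for cat and from -0.13 to 0.076 for sod1. The log2FC of 24 against 18 hpf within E+ embryos ran from -0.013 to 0.076 for gpx4b. Counts of changed members without 1 pool follow for the earlier step, the later step and the whole interval, in this order. They were 3 to 4, 2 to 3 and 2 to 3 in E+ embryos, and 3 to 4, 3 to 4 and 4 to 5 in E– embryos. Over all genes tested, the same fits called 7908 to 8694, 3886 to 5079 and 9809 to 10509 in E+ embryos. In E– embryos they called 7414 to 8406, 3530 to 4487 and 10151 to 10979. The counts of members are to be read against these numbers.

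Same-numbered pools of different groups did not deviate together (mean r 0.0012 over 60 pairs, highest 0.0979), so no pairing by number was found. Pairs within a diet were not examined apart from those between diets, so pairing within a diet is not excluded. The replicate block left each count of members as it was. Over all genes the number called for diet was 220, and ranged from 13 (lane 7) to 637 (DESeq2), with 573 for all genes with reads and from 105 to 362 without 1 pool. At 12 hpf it was 158 (0 to 338), at 18 hpf 78 (3 to 296) and at 24 hpf 0 (0 to 26). For the diet by time test it was 3 (0 to 122). From 18 to 24 hpf it was 4863 in E+ and 4278 in E– embryos, and as low as 2132 and 1936 on a single lane. From 12 to 18 hpf in E– embryos it was 8262, and 4898 on lane 7.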
